A study of Rattus norvegicus with 241 samples.

Results

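The cytosolic ribosomal protein genes were followed through bulk and single-cell RNA-seq of rat mammary cells after short-term inhibition of the TGFβ receptor. Genes were chosen by symbol alone (RPS, RPL, RPLP and RPSA names, without the RPS6K kinases), which gave 81 of 16820 symbols in the bulk tables and 80 of 18566 in the single-cell tables. Of these, 73 were in both kinds of table and 88 in either. The bulk members divided into 32 small-subunit and 49 large-subunit symbols, and 74 had reads in every one of the 202 samples. Some symbols denote paralogs (RPL22L1, RPS27L, RPL7L1, RPL10L, RPL39L, RPL3L, RPS4Y2), and reads of near-identical copies may have been split or merged between genes. Bulk counting ignored strand, so reads of a gene and of an overlapping gene on the other strand cannot be told apart. Alignment kept reads that matched several places, and how these were then counted is not given in the sources used here.

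The ribosome translates mRNA into protein, and its small and large subunits each hold a fixed set of proteins, made in matched amounts. Many of these genes share a start site within a run of pyrimidines, the terminal oligopyrimidine (TOP) motif, through which growth signalling acts on translation of their mRNAs together. In the mammary gland the demand for ribosomes is known to rise with growth and with milk secretion. The start sites are shown because this motif is what the set is known to share, and because paralogs can be set beside their partners. In rat RefSeq promoters (assembly GRCr8, whereas the expression files use rn6), 68 of the 88 member symbols matched a window. A run of at least 5 C or T bases, on the gene's strand, with at least 1 base among the 2 bases before and the first 3 bases from the annotated start was found in 46 of the 68 (67.6%). The same search found one in 6831 of 33400 windows of other genes (20.5%). Shown are 30 bases, from 20 bases before the start to the 10 bases beginning with it, on the gene's strand, with the C or T run in capitals where one was found:

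RPL14, chr8:129163600-129163629, plus strand: cggcagggcgggCCCTCTCCCTTCTCgctg

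RPL4, chr8:73566457-73566486, plus strand: agtgataagTTCTTCCTTTTCCTgtgggag

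RPLP1, chr8:71290863-71290892, minus strand: tgcgcgcaggcgcatgtgaTCCTTTCCTCa

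RPS21, chr3:187724018-187724047, plus strand: tggaagaacgagccaCTTCCTTTCTgtgtt

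RPS10, chr20:5700735-5700764, minus strand: gctgcgccgcgcacgCCCCTTCCTTTCCag

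RPL22, chr5:168117941-168117970, plus strand: cctgcgtagtgcgCCCCCCTCCCTTTCTgc

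RPL22L1, chr2:113683176-113683205, plus strand: tgagcgctccgtggatatccggttccgagt

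RPS27, chr2:177964597-177964626, minus strand: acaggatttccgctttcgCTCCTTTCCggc

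RPS27L, chr8:76443638-76443667, plus strand: ttatagtttattcatttgtcattatttgtg

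RPL7L1, chr9:21695698-21695727, plus strand: gtggaagctgcagatgcattgtgggaagcc

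The paralogs RPL22L1, RPS27L and RPL7L1 held no such run in this window, and RPL22 and RPS27 did. The paralog RPS4Y2 held one too, while RPS6, RPS3, RPSA, RPL5 and RPL11, which are no paralogs, held none. The match describes the letters in this window only.

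Rats were given TGFBRi (LY2157299, which blocks the kinase of the type I TGFβ receptor) at 75 mg/kg or vehicle, in 2 doses per day for 10 days. Inbred ACI rats started at 35 days of age and were sampled at day 0, day 7 or day 14 after the last dose, with 3 rats per group. Outbred SD rats started at 24 days and were sampled at day 0, with 4 rats per group. Further groups were adult virgin and parous ACI rats (2 to 4 per group), SD rats treated from 21 days of age and then given the carcinogen NMU, whose glands and tumors were taken at day 87 (3 per group), and ACI rats treated for 21 days from 38 days of age with or without an estradiol (E2) pellet (2 to 4 rats per group). Sorted fractions were basal cells (CD24+CD29high), luminal cells (CD24+CD29low), CD45+ leukocytes and, in tumors, EPCAM+ cells. In bulk samples, fewer cells of a type and less RNA per cell cannot be told apart. Single-cell libraries at day 0 came from sorted basal and luminal cells of ACI rats (3 per treatment) and SD rats (6 TGFBRi and 3 vehicle) and from whole SD glands (6 TGFBRi and 3 vehicle). The numbers of rats are small, and the p-values measure the spread between these rats only.

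Sorted fractions carried the markers of their names, with epithelial keratins also present in CD45+ samples. Across the data sets KRT5 ran from 292 to 3462 CPM (reads scaled to the library total) in basal samples. In luminal samples it was 0.61 to 180. KRT18 ran from 1453 to 8208 in luminal and 75 to 1159 in basal samples. KRT14 and KRT8 separated the fractions less well. A luminal sample of young SD rats had KRT14 at 1309 CPM, above the lowest basal sample, a young ACI rat at 1178. Within each data set with both fractions KRT14 did not overlap. KRT8 overlapped in NMU glands, where the highest basal sample (4412) was above the lowest luminal sample (3197), and in no other data set. PTPRC, which encodes CD45, was 48.3 to 1368 in CD45+ samples, at most 47.7 in basal and luminal samples and 3.87 to 51.4 in tumor EPCAM+ samples, so the highest EPCAM+ sample was above the lowest CD45+ sample. In CD45+ samples of glands KRT8 was 139 to 893 CPM (young ACI), 490 to 1868 (young SD) and 2.83 to 202 (E2 experiment). In adult ACI rats it was 175 to 2690, and EPCAM reached 1532 there. In NMU glands KRT8 was 648 to 3647, beside PTPRC of 48.3 to 255. One of these NMU samples had KRT5 at 1560 CPM. EPCAM was 149 to 2552 in tumor EPCAM+ samples, which overlapped the 148 to 501 of CD45+ samples of NMU glands. The part of this mixture in the results was not tested. Bulk depth was 4194912 to 52314784 reads.

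At day 0, ribosomal protein genes took a smaller share of reads in basal and luminal cells of young ACI rats after TGFBRi than after vehicle. In basal cells they took 2.45, 2.27 and 1.88% of reads in the vehicle rats and 0.957, 1.04 and 0.843% in the TGFBRi rats. In luminal cells the share was 3.07, 3.22 and 3.89% after vehicle and 1.90, 1.87 and 1.44% after TGFBRi. In both fractions the groups did not overlap, and the highest TGFBRi share was below the lowest vehicle share.

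**Figure D1:**
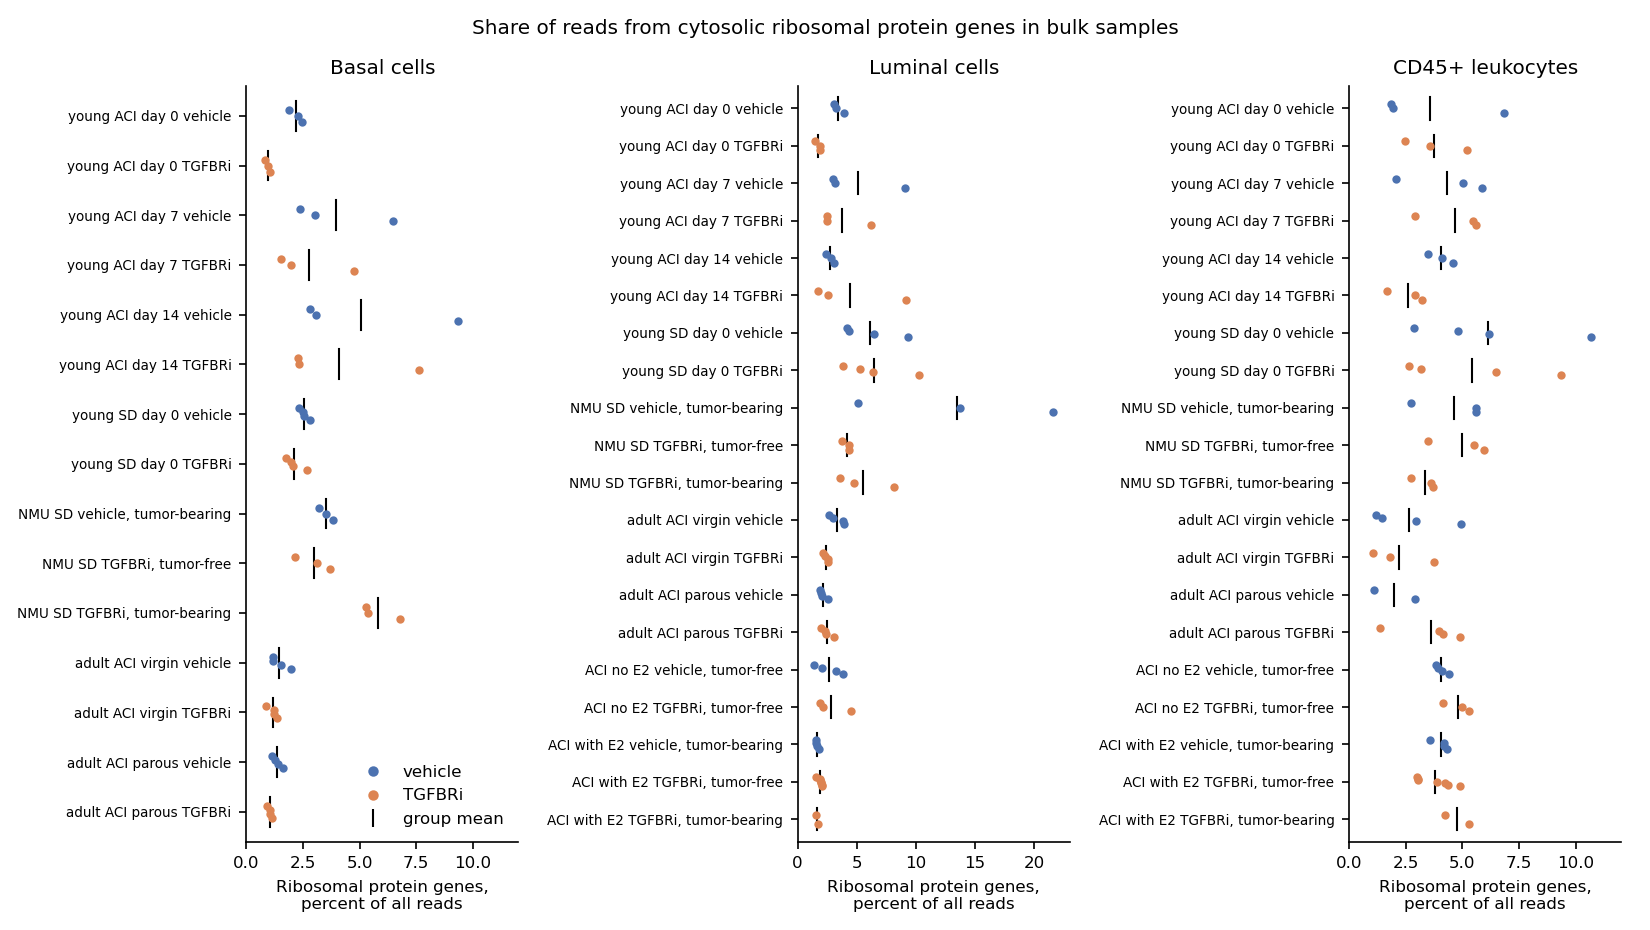
Share of reads on ribosomal protein genes, in percent, for each bulk sample by cell fraction and group, with a line at the group mean. In young ACI rats at day 0 the TGFBRi points of basal cells (0.843 to 1.04%) lie below the vehicle points (1.88 to 2.45%).

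By limma on the log2 of normalized values plus 1, with all groups of the fraction in 1 model, no member passed an adjusted p of 0.05 in either fraction, and none did by edgeR or DESeq2 on the recovered reads. At an unadjusted p of 0.05 or less, limma gave 14 members in basal and 0 in luminal cells, beside 25.7% and 19.8% of all genes. At the adjusted p the background was 0.837% of all 15643 genes called lower in basal cells and 0.184% of 15181 in luminal cells. The members nonetheless lay mostly to one side. In basal cells 77 of 80 were lower, and the median of their log2 fold changes was −1.36 beside 0.30 for all genes. Without overlap, 75 of 80 were lower and 1 higher, against 15.7% and 16.4% of all genes. In luminal cells 77 of 80 were lower, with a median of −1.05 beside 0.21. Here 76 of 80 were lower and 0 higher without overlap, against 14.1% and 18.0% of all genes. A fit to these 2 groups alone called 68 basal members and 73 luminal members lower (6.57% and 6.13% of all genes), and the 2 kinds of fit differ in the groups that share the estimate of spread and in the genes tested. Which of these moved the count was not tested.

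Genes of both subunits were lower after TGFBRi, by different amounts. RPS21, a small-subunit protein, was 3793, 3217 and 2411 normalized reads in the vehicle basal samples and 707, 805 and 778 after TGFBRi, a log2 difference of −2.02 (limma adjusted p = 0.140). RPS27, another small-subunit protein, was 9467, 7206 and 5598 after vehicle and 1766, 2350 and 2388 after TGFBRi in basal cells (log2 −1.76), and 11330, 11106 and 12994 against 4960, 6219 and 3731 in luminal cells (log2 −1.28). For the large-subunit protein RPL3, which lies at the peptidyl transferase centre, the basal values were 29978, 29272 and 25641 against 13158, 16598 and 14392 (log2 −0.95), a smaller difference than the members' median. RPLP1, a large-subunit stalk protein, differed more (log2 −1.87). RPS21, RPS27 and RPL3 did not overlap between basal groups. RPL17, a large-subunit protein at the exit of the peptide tunnel, was 4196, 3291 and 2835 against 1772, 1791 and 1763 in basal cells (log2 −0.94 ± 0.73 SE, limma adjusted p = 0.437). The paralog RPL22L1, which RPL22 is known to repress, differed by −0.50 in basal cells beside −1.70 for RPL22, and by −0.86 beside −1.41 in luminal cells. RPS27L differed by −1.31 and −0.77 in basal and luminal cells, beside −1.76 and −1.28 for RPS27. None of these passed the test.

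Sequencing depth and basal keratins moved with the groups. Basal TGFBRi samples had 6562769, 4194912 and 15136358 reads and vehicle samples 18200891, 18781674 and 12382292, of which the first 2 TGFBRi samples were below every vehicle sample. In luminal cells all 3 TGFBRi samples (8922897 to 18568520 reads) were below every vehicle sample (18895823 to 21160386). KRT5 lay between 1177 and 1445 CPM in the vehicle basal samples and between 292 and 723 after TGFBRi, and KRT14 was 3794 to 5364 and 1178 to 3365. The part of depth and of cell makeup in the ribosomal difference was not tested. Mitochondrial ribosomal proteins had a median of −0.85 in basal and −0.67 in luminal cells. Respiratory chain genes (a list chosen after the data were seen) had medians of −1.57 and −0.77. Translation factors and other TOP genes were at −0.82 and −0.71, and ribosome assembly genes at 0.11 and −0.24. The respiratory chain median in basal cells was thus lower than that of the cytosolic ribosomal proteins, and whether the lists differ was not tested.

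At the later days the ribosomal share overlapped between groups in basal and luminal cells. In basal cells it was 3.04, 2.36 and 6.47% (vehicle) against 4.76, 2.00 and 1.52% at day 7, and 9.35, 2.81 and 3.08% against 2.32, 2.30 and 7.60% at day 14. In luminal cells at day 14 it was 2.37, 3.09 and 2.80% against 1.70, 2.54 and 9.16%. The median log2 difference of members moved from −1.36 at day 0 to −0.65 and −0.38 at days 7 and 14 in basal cells, and from −1.05 to −0.54 and 0.63 in luminal cells. At the later days these medians moved with single rats. Leaving out 1 rat gave, for basal and luminal cells in turn, −1.51 to −1.24 and −1.11 to −0.95 at day 0, −1.22 to −0.02 and −1.19 to 0.36 at day 7, and −1.26 to 0.43 and −0.40 to 1.31 at day 14. The day 7 values of −0.02 and 0.36 came without the third vehicle rat (6.47% in basal cells). The titles and treatment labels of this rat name it a control, but the text describing its epithelial samples calls it treated, so its group is in doubt. In basal cells at day 14 the median was 0.43 without the vehicle rat at 9.35%, 0.05 or 0.08 without the first or second TGFBRi rat, and −1.26 without the third. In luminal cells at day 14 the −0.40 came without the TGFBRi rat at 9.16%. No member was called at these days (0.00639% and 0% of all genes in basal cells at day 7 and day 14, 0% in luminal cells). None was called for the change of effect since day 0, a contrast of the same models (0% and 0.00639% of all genes in basal cells, 0% and 0.00659% in luminal cells). In CD45+ cells of young ACI rats the median was 0.21 at day 0, 0.08 at day 7 and −0.51 at day 14 (−0.12 to 0.77, −0.35 to 0.35 and −0.66 to −0.23 with 1 rat left out), with no member called by limma (2.85%, 0% and 0% of all genes) and 2 by DESeq2 at day 0. At day 0 ribosomal proteins took 6.84, 1.96 and 1.85% of vehicle reads and 5.18, 3.55 and 2.48% of TGFBRi reads. At that day 4 of 39 ribosome assembly genes were called higher. The CD45+ shares also overlapped at day 7. At day 14 they did not, with 3.502 to 4.598% after vehicle and 1.662 to 3.237% after TGFBRi. There 18 of 80 members were lower and 1 higher without overlap, against 7.59% and 8.26% of all genes.

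The labels call the first 2 SD rats of the bulk TGFBRi group weak responders and the last 2 strong responders, and they were kept as 1 group. In SD rats at day 0 no bulk fraction had a member called, nor any other gene (0% of all genes). At an unadjusted p of 0.05 or less limma gave 10 of 79 members in basal cells and 0 in luminal and CD45+ cells, beside 3.93%, 1.94% and 3.64% of all genes. The shares in basal cells were 2.56, 2.51, 2.82 and 2.32% after vehicle and 2.67, 2.05, 1.77 and 2.00% after TGFBRi, and in luminal cells 6.49, 4.17, 9.36 and 4.31% against 5.28, 3.86, 10.3 and 6.38%. Medians of members were −0.26, −0.03 and −0.27 in basal, luminal and CD45+ cells, and −0.36 to −0.17, −0.33 to 0.30 and −0.61 to 0.06 with 1 rat left out.

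Among adult ACI rats, basal cells of virgin rats had 2 members called lower after TGFBRi, RPS12 and RPSA (background 6.23% of 13442 genes called lower). RPS12, a small-subunit protein, was 1604, 2051, 1589 and 2639 normalized reads after vehicle and 838, 1225, 805 and 1165 after TGFBRi (log2 −0.96, limma adjusted p = 0.0129). RPSA, a small-subunit protein also known as the laminin receptor, was 5322, 6730, 5319 and 9308 against 2601, 4370, 3949 and 3439 (log2 −0.88, limma adjusted p = 0.0276). In both genes the groups did not overlap. The members' median was −0.31 beside −0.25 for all genes, and the share of members called was below that of all genes. With 1 rat left out the count was 1 to 9, with 9 without the second TGFBRi rat (9.02% of genes called lower) and 1 without the second vehicle rat, the last vehicle rat or the first TGFBRi rat, and a fit to these 2 groups alone called 0. The other adult fractions had no member called, with medians of −0.50 in virgin luminal, −0.22 in virgin CD45+, −0.36 in parous basal, 0.28 in parous luminal and 0.88 in parous CD45+ cells. Of all genes, 0%, 0.022%, 0.00744%, 0.0281% and 0% were called in these fractions, in the same order. At an unadjusted p of 0.05 or less limma gave 39, 0, 18, 4 and 0 members, beside 6.85%, 5.5%, 5.04%, 13% and 1.04% of all genes. With 1 rat left out the median ran from −0.81 to 0.29 in virgin CD45+, from 0.09 to 0.39 in parous luminal and from 0.25 to 1.49 in parous CD45+ cells, where the 0.25 came without the first of the 2 vehicle rats. In parous basal cells 24 members were lower without overlap, against 2.56% of all genes. The ribosomal share there was 0.934 to 1.13% after TGFBRi and 1.14 to 1.64% after vehicle, without overlap. In virgin luminal cells it was 2.14 to 2.58% and 2.64 to 3.95%, also without overlap. The shares overlapped in virgin basal, virgin CD45+, parous luminal and parous CD45+ cells. None of the differences between parous and virgin rats in the effect of TGFBRi was called for a member, with medians of −0.03, 0.81 and 1.13 in basal, luminal and CD45+ cells (1.04%, 0% and 0% of all genes), which ran from −0.18 to 0.08, 0.61 to 0.98 and 0.51 to 1.73 with 1 rat left out.

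**Figure D2:**
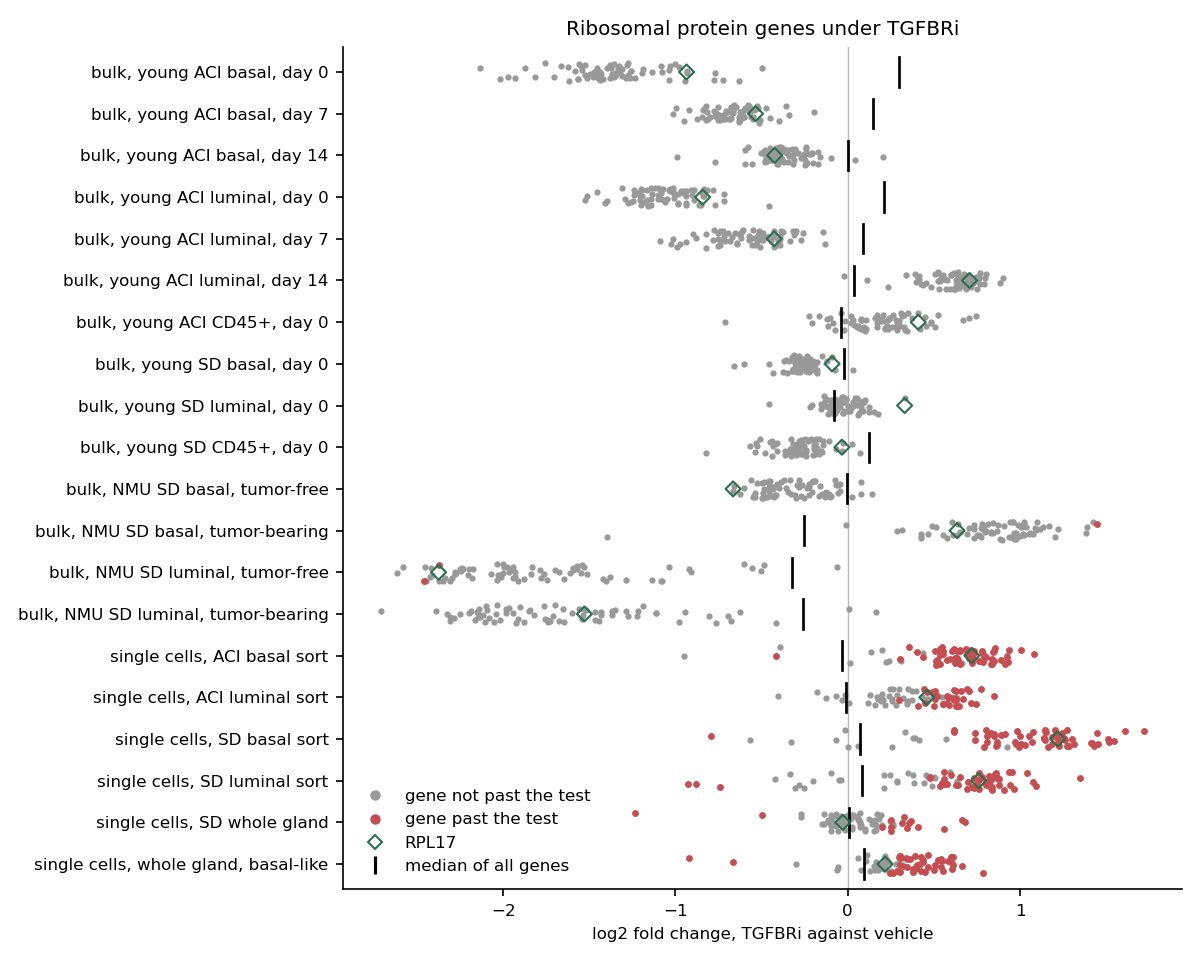
Log2 fold change of each ribosomal protein gene, TGFBRi against vehicle, as points by comparison, red where past the test, with RPL17 as a diamond and a line at the median of all genes. In young ACI cells at day 0 the members center on −1.36 (basal) and −1.05 (luminal), whereas the ACI single-cell sorts center on 0.65 and 0.44.

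After NMU, the ribosomal share in luminal cells was lower in every tumor-free TGFBRi rat than in any vehicle rat, overlapped with vehicle in tumor-bearing TGFBRi rats, and ranged widely among the vehicle samples. The share of reads was 21.6, 13.7 and 5.14% in vehicle rats, which carried tumors, 4.32, 4.36 and 3.79% in TGFBRi rats without tumors and 4.80, 8.11 and 3.55% in TGFBRi rats with tumors. The first 2 vehicle samples stood far above the rest, and these had KRT8 at 3197 and 5034 CPM, beside 12056 in the other vehicle sample. Depth was 6952044 to 21445893 reads in the vehicle samples and 20003972 to 21173594 in the tumor-free TGFBRi samples. The part of depth and of cell makeup was not tested. The tumor-free and tumor-bearing TGFBRi groups were both compared with the same 3 vehicle rats, in luminal as in basal cells, and tumor status differs with treatment in the first of these comparisons. In tumor-free rats the median was −1.94 beside −0.32 for all genes, and RPL17 and RPLP1 were called lower (0.0849% of 14128 genes were). edgeR called 47 members lower (2.07% of genes) and DESeq2 65 (6.26%). RPL17 was 11737, 15545 and 6048 normalized reads in vehicle rats and 1548, 2006 and 2545 in TGFBRi rats (log2 −2.37, limma adjusted p = 0.0222). RPLP1, a stalk protein that recruits elongation factors, was 153053, 99098 and 29581 against 16000, 12259 and 13844 (log2 −2.46, limma adjusted p = 0.0403). Without overlap, 44 members were lower and 0 higher, against 11% and 11.2% of all genes. RPS2 (42079, 49335 and 24535 against 48793, 31247 and 29473) overlapped and differed by −0.06, RPL3 by −0.49, RPLP0 by −0.56 and RPL4 by −0.92, all at least 1 above the median of the members. Leaving out the vehicle rat with 5.14% gave 71 members called in place of 2 (8.37% of genes called lower), and leaving out any other rat of the 2 groups gave 0. In TGFBRi rats with tumors the median was −1.73, no member was called by limma (0.212% of all genes), 2 were by edgeR and 61 by DESeq2 (0.459% and 4.67% of genes called lower), and 67 were called by limma without that same vehicle rat (6.38%). Mitochondrial ribosomal proteins had a median of −1.11, respiratory chain genes −1.62 and ribosome assembly genes −0.18 in tumor-free rats.

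In basal cells of tumor-bearing TGFBRi rats the direction was opposite. The share was 3.82, 3.52 and 3.19% after vehicle and 5.36, 5.27 and 6.77% after TGFBRi, and the groups did not overlap. The members' median was 0.84 beside −0.25 for all genes, 64 members were higher without overlap (9.78% of all genes), and 1 was called (1.01% of 13312 genes were called higher). RPS21 was 4996, 5972 and 5830 after vehicle and 16656, 11162 and 18873 after TGFBRi (log2 1.44, limma adjusted p = 0.0469). With 1 rat left out the count of called members ranged from 0 to 13, and 13 came without the first TGFBRi tumor-bearing rat (4.3% of genes called higher). edgeR called 9 members higher (1.71% of genes) and DESeq2 41 (5.27%). Respiratory chain genes had a median of 1.18 and 32 of 70 called higher. In tumor-free TGFBRi rats the share was 2.15, 3.68 and 3.12% and the median of members −0.35 (−0.57 to −0.02 with 1 rat left out), with no member called (0% of all genes). In CD45+ cells of these glands the medians were 0.25 in tumor-free and −0.36 in tumor-bearing rats (−0.11 to 0.49 and −0.70 to −0.14 with 1 rat left out, the −0.11 without the third vehicle rat), and no member was called (0% and 0.015% of all genes).

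No member was called in the tumors, nor any other gene (0% of all genes). At an unadjusted p of 0.05 or less limma gave 2 of 79 members in EPCAM+ and 9 of 79 in CD45+ cells, beside 2.15% and 6.65% of all genes. The share in tumor EPCAM+ cells was 0.804, 2.08 and 1.49% after vehicle and 2.11, 1.62 and 6.01% after TGFBRi, and the median of members was 1.09, or 0.47 without the rat at 6.01%. In tumor CD45+ cells it was 5.66, 6.97 and 5.29% against 7.96, 7.86 and 10.2%, with no overlap, a median of 0.45 and 32 members higher without overlap (5.89% of all genes). In the E2 experiment no member was called in luminal or CD45+ cells for TGFBRi, with medians from −0.11 to 0.36. With 1 rat left out the luminal medians ran from −0.37 to 0.30 without E2 and from −0.29 to 0.06 in tumor-bearing rats with E2, and the CD45+ median of tumor-free rats with E2 from −0.12 to 0.03. The luminal median of tumor-free rats with E2 ran from 0.08 to 0.18. The CD45+ medians ran from 0.17 to 0.40 without E2 and from 0.11 to 0.61 in tumor-bearing rats with E2. Averaged per rat, the luminal share of tumor-free TGFBRi rats with E2 was 1.92 to 1.96%, beside 1.56 to 1.83% after vehicle, without overlap. The 7 samples of these 4 rats, several of them from 1 rat, ran from 1.58 to 2.10% and so overlapped with vehicle. In the other TGFBRi comparisons of this experiment the shares overlapped. Of all genes, 0.0147%, 0.0147% and 0.00736% were called in luminal and 0%, 0% and 0.0223% in CD45+ cells, for rats without E2, tumor-free with E2 and tumor-bearing with E2. The tumor-free TGFBRi rats with E2 were set against vehicle rats that all bore tumors, so treatment and tumor status cannot be told apart there. The CD45+ group of tumor-bearing TGFBRi rats held 2 rats, and without the second 18 members were called higher (4.21% of all genes), a fit in which the spread of the 1 remaining rat was taken from the other groups. Nor was a member called for E2 itself, with medians of −0.46 (−0.67 to −0.19 with 1 rat left out) in luminal and 0.04 (−0.02 to 0.10) in CD45+ cells (1.48% and 0.282% of all genes), although DESeq2 called 1 in luminal cells. All vehicle rats with E2 bore tumors and none without E2 did, so E2 and tumor status cannot be told apart.

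Among vehicle rats no member was called by limma for time or for parity. In basal cells of young ACI rats the median was 0.80 at day 7 and 1.35 at day 14 against day 0 (0.192% and 0.0384% of all genes called), and at day 14 68 members were higher without overlap (8.61% of all genes). With 1 rat left out these medians ran from 0.19 to 1.16 and from 0.56 to 1.78, the lowest without the third day 7 rat and without the first day 14 rat. In luminal cells it was 0.55 and −0.27 (0.685% and 0.389%), and in CD45+ cells 0.39 and 0.30 (0% and 0.129%). The luminal median at day 7 was −0.35 without the third day 7 rat, the one whose labels disagree on treatment, and the CD45+ median at day 14 was −0.04 without the third day 0 rat. In parous against virgin rats the median was −0.07, −0.66 and −0.42 in basal, luminal and CD45+ cells (0% of all genes called in each), with 27 members lower without overlap in luminal cells (2.57% of all genes), where DESeq2 called 5. The CD45+ median was 0.21 without the first of the 2 parous rats.

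Between sorted fractions of the same vehicle rats the ribosomal share was lower in basal than in luminal cells in young rats at day 0 and in NMU rats. In young SD rats basal cells held 2.32 to 2.82% and luminal cells 4.17 to 9.36%, in NMU rats 3.19 to 3.82% against 5.14 to 21.6%, and in young ACI rats 1.88 to 2.45% against 3.07 to 3.89%. The basal and luminal values did not overlap in any of these 3 sets. In adult ACI vehicle rats they were 1.14 to 1.97% against 1.85 to 3.95%, and lower in basal cells of every rat. In young ACI rats after day 0 the order was not kept in all rats. At day 7 the 3 vehicle rats held 3.04, 2.36 and 6.47% in basal and 3.13, 3.01 and 9.05% in luminal cells, but at day 14 they held 9.35, 2.81 and 3.08% against 2.37, 3.09 and 2.80%, higher in basal cells in 2 of 3 rats. The sort was tested in young rats at day 0 and in NMU rats only. In young SD rats 71 of 80 members were called lower in basal cells (23.2% of 13400 genes) and 73 of 80 in NMU rats (11.2% of 14473). The 1 member called higher, in young SD rats (26.9% of genes), was RPL37A, with a mean of 9.63 reads. In young ACI rats no member was called by limma, edgeR or DESeq2, nor at an unadjusted limma p of 0.05, which 29.4% of genes passed (8.04% of genes were called lower at the adjusted p), the median was −0.72 beside 0.21, and 70 were lower without overlap (20.8% of all genes). With the rat as a block, 5 of the ACI members were called lower (14.2% of all genes), and 66 in a fit to these 2 groups alone (19.3% of all genes). The medians in SD and NMU rats were −1.75 and −2.37, beside 0.13 and −0.27 for all genes.

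**Figure D3:**
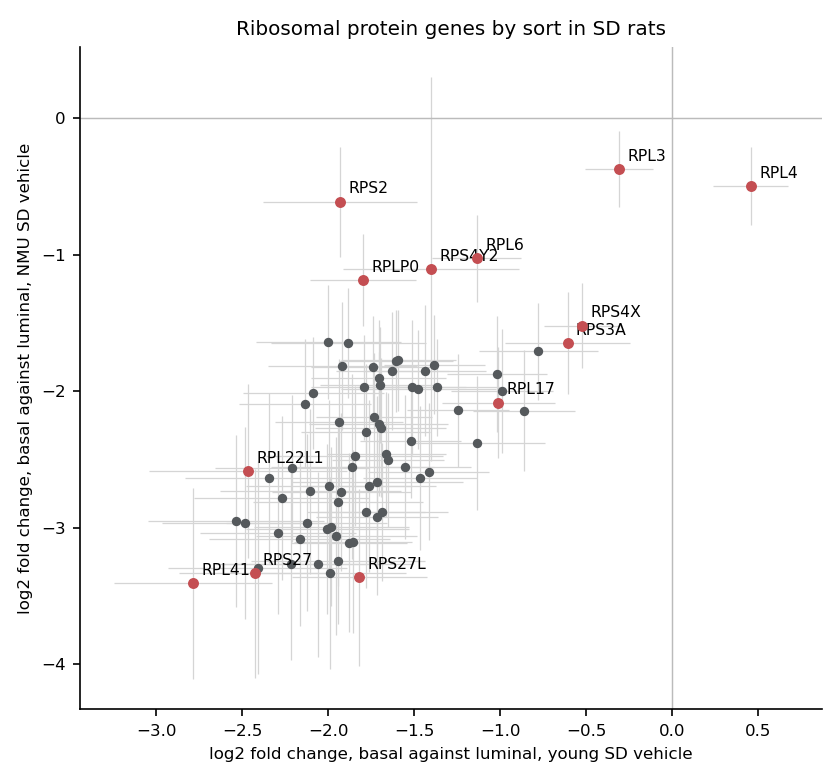
Log2 fold change of each ribosomal protein gene between basal and luminal cells of vehicle rats, with young SD rats on the horizontal and NMU rats on the vertical axis, and bars of 1 SE. RPL41 lies lowest at −2.79 in young SD and −3.41 in NMU rats, and RPL3 (−0.31 and −0.37) and RPL4 (0.45 and −0.50) lie apart at the upper right.

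RPL41, a large-subunit peptide, was 4782, 4601, 5328 and 4837 normalized reads in basal and 56643, 14886, 79603 and 19195 in luminal cells of young SD rats (log2 −2.79 ± 0.46 SE, limma adjusted p = 8.21e-05). In NMU rats it was 13216, 13418 and 11110 against 438660, 179783 and 29820 (log2 −3.41 ± 0.70 SE, limma adjusted p = 0.00187). The basal samples were alike in both data sets, and the spread lay in the luminal samples. RPS14 and RPS15, both small-subunit proteins, fell by 2.54 and 2.48 on the log2 scale in young SD rats (limma adjusted p = 0.000533 and 0.000391). RPS27 was 16191, 20432 and 18798 in basal and 704801, 248655 and 36318 in luminal cells of NMU rats (log2 −3.33, limma adjusted p = 0.00454). Its paralog RPS27L, a p53 target, was 3009, 3009 and 1974 against 78238, 44645 and 5579 (log2 −3.36, limma adjusted p = 0.00103). RPL22L1 and RPL22 also fell together, by 2.47 and 2.01 in young SD rats (limma adjusted p = 0.00174 and 0.00184) and by 2.58 and 3.01 in NMU rats (0.00648 and 0.00163).

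RPL3 and RPL4 stood apart in both data sets. RPL3 was 20790, 19474, 21959 and 19746 in basal and 23148, 26853, 27400 and 24310 in luminal cells of young SD rats (log2 −0.31, limma adjusted p = 0.205), and 19145, 20541 and 28119 against 27504, 29420 and 29549 in NMU rats (log2 −0.37, limma adjusted p = 0.388). RPL4, a large-subunit protein of the tunnel wall, was 10222, 10072, 10326 and 9147 against 5889, 9934, 6068 and 7760 in young SD rats (log2 0.45, limma adjusted p = 0.0915) and differed by −0.50 in NMU rats. Both genes lay at least 1.44 above the median of the members in each data set. In young ACI rats they differed by −0.41 and −0.46 beside a median of −0.72. RPS3A and RPS4X were also apart in young SD rats, at −0.61 and −0.53, and RPS2, RPLP0 and RPL6 in NMU rats, at −0.61, −1.19 and −1.03. The order of the members was not the same in both data sets. Scaling to the genes that are not members moved the median of all genes by over 0.1, from 0.13 to 0.59 in young SD and from −0.27 to 0.21 in NMU rats, and RPL3 then differed by 0.195 and 0.168. Mitochondrial ribosomal proteins were called lower in 48 of 70 in young SD rats and 28 in NMU rats, with 0 higher. Ribosome assembly genes were called higher in 12 of 39 and lower in 6 in young SD rats, beside 26.9% and 23.2% of all genes.

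In sorted single cells the sort difference had the same direction. The share of UMIs in vehicle libraries was 9.39 to 9.95% for ACI basal cells and 15.9 to 16.7% for ACI luminal cells, and 11.9 to 13.1% against 15.9 to 19.9% in SD rats. By edgeR on summed UMIs at an adjusted p of 0.1, 69 of 78 members were called lower in ACI basal cells (33.2% of 14526 genes) and 51 of 77 in SD basal cells (26.2%). RPLP1 fell by 1.56 and 1.02 (edgeR adjusted p = 1.91e-06 and 0.000979) and RPL5, a 5S RNA-binding protein, by 1.12 and 0.90 (edgeR adjusted p = 3.69e-05 and 0.00132). The exception was RPL10L, a retrocopy known from testis, higher by 2.86 in ACI basal cells on a mean of 31.8 UMIs per library (edgeR adjusted p = 0.00472), beside 33.5% of genes called higher.

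After TGFBRi the single-cell libraries of the same day went the other way from bulk. In ACI basal cells members took 13.6, 13.3 and 13.4% of UMIs after TGFBRi and 9.95, 9.39 and 9.88% after vehicle, and in luminal cells 17.3, 19.3 and 19.3% against 16.6, 15.9 and 16.7%. Neither fraction overlapped. Keratins and EPCAM moved with these groups too, among cells that the authors had kept only with enough cytokeratin reads. In basal libraries KRT5 was 775 to 829 CPM after TGFBRi and 929 to 1344 after vehicle, KRT14 381 to 415 and 554 to 610, and EPCAM 732 to 933 and 463 to 630. In luminal libraries KRT8 was 3083 to 3380 after TGFBRi and 2043 to 2283 after vehicle. Median genes per cell were 1993.5, 2617.5 and 2349 after TGFBRi and 3724, 2633 and 3042 after vehicle in luminal libraries, also without overlap, and 30.9 to 38.7% of their cells after TGFBRi and 24.6 to 29.9% after vehicle were given no class by the marker lists. The part of cell makeup and of depth in the ribosomal difference was not tested. In ACI basal cells 61 of 78 members were called higher and 1 lower (15.5% and 17.5% of 14094 genes), with a median of 0.65 beside −0.03 for all genes. In ACI luminal cells 35 of 77 were called higher and 0 lower (13.4% of 13808 genes called higher and 11.7% lower), with a median of 0.44. Bulk samples at the same day had medians of −1.36 and −1.05 in low-input full-length libraries, whereas the sorted single-cell libraries count 3′ ends, and the part of the library type was not tested. Without the first TGFBRi rat the luminal count was 62 (9.79% of genes called higher), and without the first vehicle rat 23 (6.5%).

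In ACI basal cells the largest rises were in RPS10L1 (log2 1.08, edgeR adjusted p = 0.0658), RPL13A (1.01, adjusted p = 9.73e-05), RPL31 (0.93, 0.0583), RPS2 (0.93, 0.000712) and RPL14 (0.93, 0.000131). RPL13A, a large-subunit protein, and RPL14 also led in luminal cells, at 0.85 and 0.72 (edgeR adjusted p = 0.00429 and 0.00690), with RPSA at 0.70 (0.00839). RPL17 was 3434 to 3538 CPM in TGFBRi and 2230 to 2672 in vehicle basal libraries, and rose by 0.72 (edgeR adjusted p = 0.000691), close to the median of the members. The 1 member called lower was RPL7L1, a paralog of RPL7, at −0.42 (adjusted p = 0.0620).

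In SD rats the share was 18.3, 22.8, 20.7, 19.6, 15.4 and 15.2% after TGFBRi and 12.8, 13.1 and 11.9% after vehicle in basal cells, with no overlap. In luminal cells it was 19.03 to 22.8% against 15.9 to 19.9%, which overlapped. KRT14 was 68.4 to 223 CPM after TGFBRi and 251 to 352 after vehicle in basal libraries, and its part in the difference was not tested. In basal cells 60 of 78 members were called higher and 1 lower (12.5% and 12.2% of 14585 genes), with a median of 1.00 beside 0.07, and in luminal cells 48 were called higher and 3 lower (17.3% and 14.6%), with a median of 0.62. The basal count of calls was 36 without the first and 26 without the third vehicle rat (0.862% and 0.387% of genes called higher), and the luminal count 0 without the first and 33 without the second, 30 of them higher (5.25% of genes). RPS10, a small-subunit protein, was 368 to 657 CPM against 144 to 237 in basal cells (log2 1.72, edgeR adjusted p = 0.00883). In luminal cells RPS10 rose by 1.35 (edgeR adjusted p = 0.0160) and RPL13A by 1.09 (0.0192). The members that fell were RPS27A, which encodes a ubiquitin fusion, in both fractions, and in luminal cells also RPS27 and RPL7L1. RPS27A was 267 to 422 against 689 to 882 CPM in basal cells (log2 −0.79, edgeR adjusted p = 0.0220) and 297 to 466 against 494 to 946 in luminal cells (−0.74, 0.0431). RPS27 was 2130 to 2422 against 2685 to 7168 in luminal cells (−0.93, 0.0366), and 1931 to 3598 against 4676 to 6427 in basal cells, where it did not pass (−0.57, 0.123). Mitochondrial ribosomal proteins were called higher in 40 and 59 of 78 and respiratory chain genes in 52 and 55 of 72, in basal and luminal cells, beside the 12.5% and 17.3% of all genes.

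Scaling to the genes that are not members moved the median of all genes in ACI basal cells from −0.03 to −0.19, and in SD basal and luminal cells to −0.21 and −0.20, with the members' direction unchanged in these fractions. No doublet step was applied here. PTPRC was at 0 in all sorted libraries because the authors had removed each sorted cell with a PTPRC read, so it says nothing about leukocytes or doublets in them. The same step also removed sorted cells with too few cytokeratin reads, and no such filter acts on bulk samples. Its part in the keratin values and in the contrast with bulk was not tested. RPL7A was not listed in the ACI single-cell libraries and held 0 to 5 UMIs in each SD library, although read in bulk. RPL37A was the reverse, at a mean under 10 bulk reads. Others were also read little in sorted libraries. RPS19 had medians of 0.0322 to 0.0473% of member UMIs by strain and fraction, beside 2.21 to 2.49% for RPS18. RPS6, RPLP2 and RPL21 had medians of at most 0.0214%.

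In whole SD glands the share was 18.9 to 21.6% of UMIs after TGFBRi and 16.5 to 19.02% after vehicle. These libraries count 5′ ends, unlike those of sorted cells. Here 13 of 80 members were called higher and 2 lower (15.1% and 16.8% of 18178 genes), so the share of members called higher was close to the background and the share called lower was below it. With the library size taken over genes that are not members, 48 were called higher and 2 lower (27.4% and 8.02% of genes), so the first of these readings rests on the scaling. The count was 4, all lower, without the second vehicle rat, and the share of all genes called in that fit is not given here. Cells were placed in a class by UMIs of at least 2 of its markers and are called T cell-like and so on. T cell-like cells took 11.2 to 21.3% of cells after TGFBRi and 3.83 to 10.98% after vehicle, B cell-like cells 10.7 to 17.5% and 1.47 to 9.78%, and these classes had the highest ribosomal shares, and the part of this leukocyte content in the share of whole glands was not tested. By class, cells held 30.5 and 30.0% (TGFBRi and vehicle means) in T cell-like cells, 24.4 and 24.3% in B cell-like cells, 22.1 and 19.5% in mature luminal-like cells, 19.8 and 19.4% in luminal progenitor-like cells, 19.5 and 16.0% in basal-like cells and 14.6 and 14.4% in endothelium-like cells. Fibroblast-like cells held 14.4 and 14.1%, and mural cell-like cells 11.2 and 11.8%. In macrophage-like cells the share was 12.3 to 13.3% after TGFBRi and 9.53 to 11.4% after vehicle, and in Schwann cell-like cells 6.37 to 7.36% and 8.34 to 9.17%. These last were the classes without overlap, in opposite directions. Basal-like cells overlapped only at the edge, at 16.767 to 20.4% after TGFBRi and 15.4 to 16.7715% after vehicle. Median UMIs per macrophage-like cell were also apart, at 2963 to 3956 after TGFBRi and 4100 to 4678.5 after vehicle, and the part of this depth in the share was not tested. In Schwann cell-like cells they overlapped (3460 to 4816.5 and 3231 to 3680). Cells without a class were 30.1 to 35.4% of TGFBRi libraries and 39.7 to 45.2% of vehicle libraries, so the placing of cells moved with treatment, and its part in these values was not tested.

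**Figure D4:**
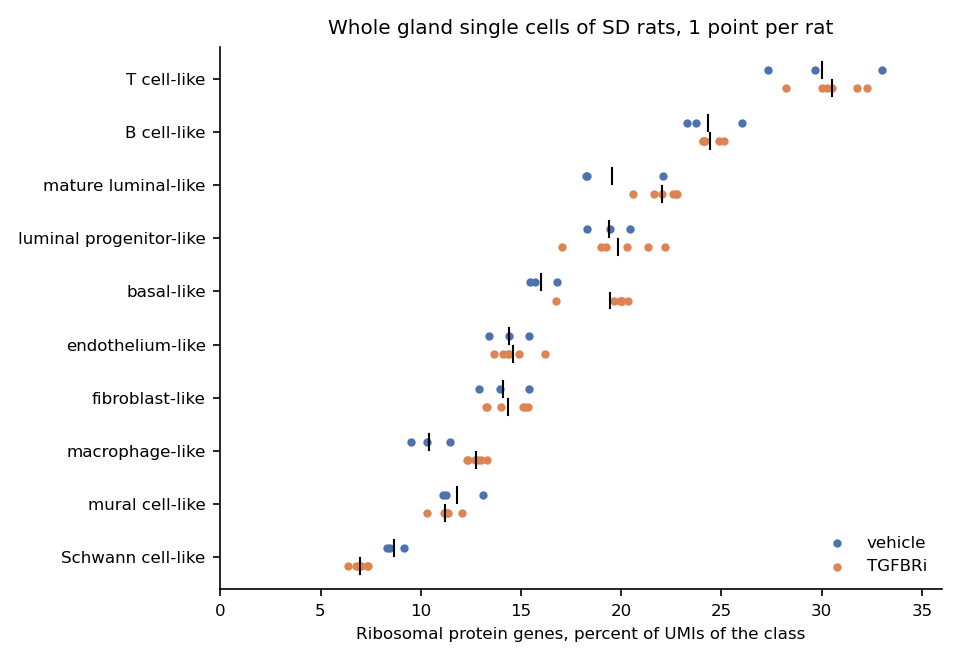
Share of UMIs on ribosomal protein genes per rat in each marker class of whole SD glands, by treatment, with a line at the mean. Macrophage-like cells lie at 9.53 to 11.4% after vehicle and 12.3 to 13.3% after TGFBRi, and Schwann cell-like cells at 8.34 to 9.17% and 6.37 to 7.36%.

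Within classes, members were called higher in 46 of 76 in basal-like cells (2 lower, 23.6% and 21.1% of genes), 15 of 76 in mature luminal-like cells and 4 of 77 in macrophage-like cells, and lower in 25 of 76 in endothelium-like cells, 25 of 75 in mural cell-like cells, 24 of 72 in Schwann cell-like cells and 5 of 78 in fibroblast-like cells. The background was 10.1% and 2.75% of genes called higher in mature luminal-like cells and macrophage-like cells. It was 19% (endothelium-like), 13% (mural cell-like), 4.31% (Schwann cell-like) and 15% (fibroblast-like) of genes called lower. RPS19, a small-subunit protein mutated in Diamond-Blackfan anemia, rose by 0.78 in basal-like cells and in macrophage-like cells (edgeR adjusted p = 0.00576 and 0.0349). RPS18, which lies at the head of the small subunit, rose by 0.61, 0.45 and 0.47 in basal-like, mature luminal-like and macrophage-like cells (0.00315, 0.0277 and 0.0571). RPS20 fell by 0.70, 0.40 and 0.50 in Schwann cell-like, endothelium-like and mural cell-like cells (0.00590, 0.00546 and 0.0124). RPL7L1 fell by 0.67 in basal-like cells, 0.64 in endothelium-like cells and 0.97 in fibroblast-like cells (0.00432, 0.00191 and 0.000260). Ribosome assembly genes were called lower in 40 of 44 in basal-like cells, 39 of 44 in endothelium-like cells and 37 of 44 in fibroblast-like cells. These counts moved with single rats and with the scaling. Without the second vehicle rat 25 members were called in basal-like cells (23 higher, beside 15.3% of genes), 1 in mature luminal-like cells and 0 in macrophage-like cells. Without the third vehicle rat 26 were called higher in macrophage-like cells (7.27% of genes), 1 in mature luminal-like cells and 13 lower in Schwann cell-like cells (4.33%). Without the first, 33 were called higher in mature luminal-like cells (9.15%) and 15 lower in endothelium-like cells (15.1%). Scaling to genes that are not members gave 45 calls in macrophage-like cells, all higher (10.3% of genes), and moved the median of members in endothelium-like cells from −0.16 to 0.03 and in mural cell-like cells from −0.23 to −0.06.

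RPL17 was one member whose level against the others differed between data sets. As a percentage of all member reads it was 0.86 to 1.40 in basal samples of young ACI rats (n = 18) and 0.27 to 0.75 in those of young and NMU SD rats (n = 17). In luminal samples it was 0.94 to 1.32 against 0.17 to 0.64, and in CD45+ samples 0.64 to 1.10 against 0.21 to 0.79. ACI and SD values did not overlap in basal and luminal cells, and they did in CD45+ cells. Tumor EPCAM+ samples of SD rats, which have no ACI counterpart here, held 0.405 to 1.02% and so reached the ACI values. Adult ACI samples held 0.756 to 1.25% in basal, 0.725 to 1.04% in luminal and 1.15 to 1.62% in CD45+ cells. Sorted single-cell libraries held 2.37 to 2.81% (ACI) and 1.35 to 2.31% (SD). Each data set was of 1 strain, so strain and data set cannot be told apart, and the pattern is a description without a test. Within SD rats, whole-gland libraries held RPL17 at 0.677 to 1.52%, beside the 1.35 to 2.31% of sorted libraries. Other members also differed, and 2 are given here that were chosen after their values were seen. RPS3A did not overlap between the strains in bulk luminal samples (1.34 to 1.70% in ACI and 0.36 to 1.20% in SD), but it did in luminal single-cell libraries (2.77 to 3.94% and 2.63 to 3.31%). RPL23A did not overlap in sorted single-cell libraries of either fraction, with SD medians lower by a log2 ratio of −0.68 in basal and −0.91 in luminal cells, beside −0.57 and −0.62 for RPL17, but it overlapped in bulk. Levels also differed between data sets of 1 strain. In ACI luminal samples RPS19, also chosen after its values were seen, was 0.0026 to 0.0244% of member reads in young rats. In adult rats it was 0.0641 to 0.185%.

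**Figure D5:**
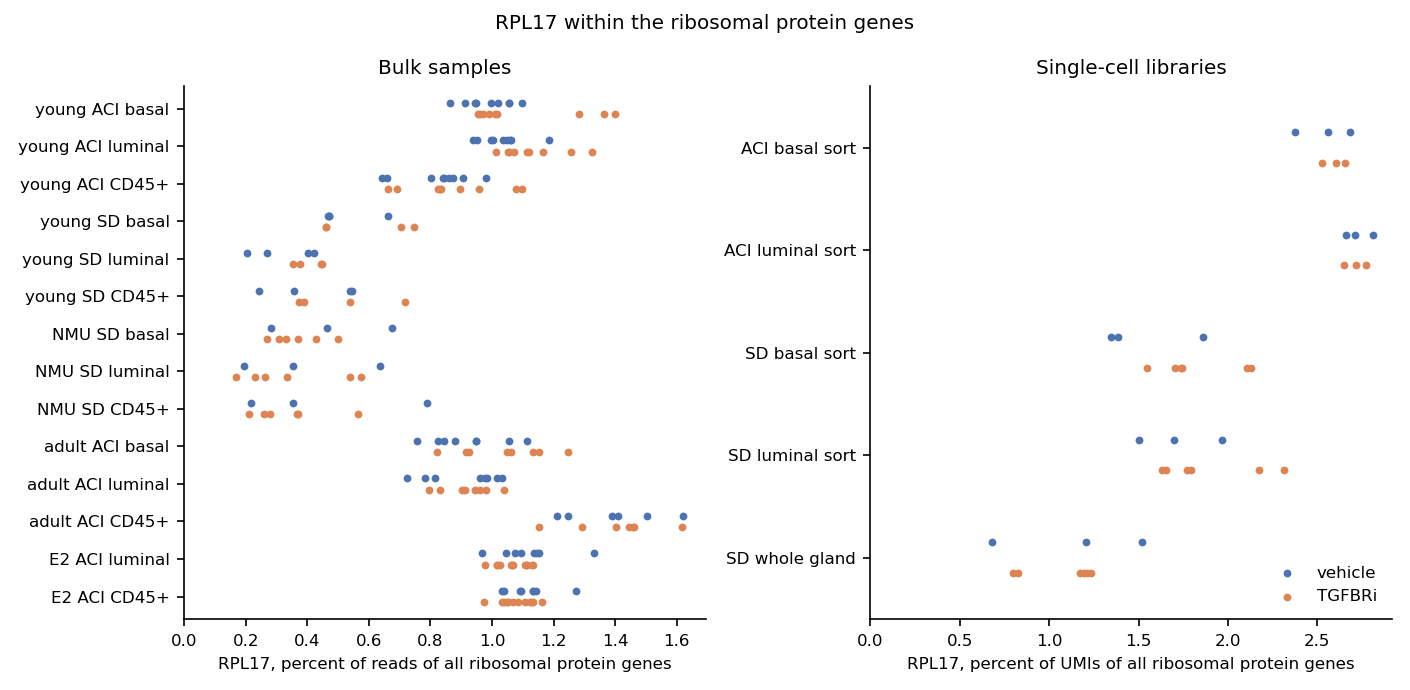
RPL17 as a percentage of all ribosomal protein reads, for each bulk sample (left) and single-cell library (right) by strain, data set, fraction and treatment. Basal samples of young ACI rats (0.86 to 1.40%) lie above those of SD rats (0.27 to 0.75%).

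RPL17 also varied from rat to rat among NMU rats. One vehicle rat held 0.282% in basal, 0.196% in luminal and 0.217% in CD45+ cells, another 0.463, 0.355 and 0.353%, and the third 0.676, 0.635 and 0.788%. Among the 6 TGFBRi rats the lowest luminal value was 0.167%, with 0.308% in basal cells of the same rat, and the highest 0.574%, with 0.498%. The 3 vehicle rats kept the same order in the 3 fractions, whereas the lowest TGFBRi values, 0.269% in basal, 0.167% in luminal and 0.211% in CD45+ cells, came from 3 different rats. Young SD rats did not keep 1 order either. Within young ACI basal cells RPL17 was 1.10, 0.946 and 1.06% after vehicle and 1.40, 1.28 and 1.36% after TGFBRi at day 0, without overlap. In luminal and CD45+ cells of these rats the groups overlapped, at 1.06 to 1.18% against 1.17 to 1.32% and 0.657 to 0.981% against 0.958 to 1.10%. In sorted single cells of SD rats, vehicle rats held 1.86, 1.35 and 1.39% in basal and 1.97, 1.70 and 1.503% in luminal cells, and TGFBRi rats 1.55 to 2.13% and 1.63 to 2.31%.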

How the data were processed

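The authors aligned bulk reads with STAR 2.5.1b to rn6, counted them with HTSeq without regard to strand and deposited a normalized signal per gene, the read count divided by a DESeq2 1.30.1 size factor. All values above 0 were whole multiples of 1 step per sample (100% at a tolerance of 0.001), so reads were recovered. Single-cell tables hold UMI counts deposited by the authors (Cell Ranger 4.0.0 or 7.0.0, Seurat 4.0.0 or 4.1.1), filtered by them. Libraries shared 0 to 7 barcodes in sorted cells and at most 2.51% in whole glands. Unassigned reads (23.1 to 42.5% in adult and E2 samples) were left out, and no 2 samples were identical.

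Log2 of the signal plus 1, over genes summing to at least 10, was fitted with limma 3.58.1 (trended, robust prior, all groups of a fraction in 1 model, Benjamini-Hochberg adjusted p of 0.05 or less), in place of the planned count test since the values are normalized. UMIs summed per rat and class (at least 2 markers) were tested with edgeR 4.0.16 (quasi-likelihood, TMM, adjusted p of 0.1 or less) in R 4.3.3. Alternatives included edgeR and DESeq2 1.42.0 on recovered reads. Both were tested on simulated data. Rats with several samples were averaged. Basal and luminal samples pair by the rat that the labels name.

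The members, lists and tests were chosen with earlier results of these data known. Named genes were members passing the test, up to 5 per direction by fold change (mean reads of 50 or more, mean UMIs of 20 or more), members at least 1 log2 unit from the members' median, and RPL17 and paralogs with their partners. For 1 vehicle rat at day 7 the labels disagree on treatment, and for 1 CD45+ sample on day 7.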

Additional observations from a re-analysis of the deposited data

Results flagged for a closer look

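RPL17 took 0.662% of ribosomal protein reads in 1 basal sample of a young SD vehicle rat at day 0, and the nearest of the other 3 samples held 0.470%. The gap is large against the range of the 4 samples. It was the 1 sample that stood out among 50 sets of values examined. Chance alone marks about 1 in 20 such sets, so a single one among 50 is no more than chance gives.

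In whole SD glands the share of UMIs on ribosomal protein genes was 2.32 percentage points higher after TGFBRi in macrophage-like cells and lower by 1.71 points in Schwann cell-like cells (−1.71). Every TGFBRi rat lay above every vehicle rat in the first class and below in the second. The difference between these classes was not tested. Median UMIs per macrophage-like cell were lower after TGFBRi as well, without overlap (2963 to 3956 against 4100 to 4678.5), and their part was not tested. Schwann cell-like cells numbered 23 to 127 per library.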

How the results depend on the processing

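Most counts of called members stayed within 1.5 times under the alternatives, but many of these were 0 in both fits. Such pairs do not show how stable a count above 0 is. The exceptions follow, with the cause not tested. Fitting only the 2 groups gave 68 (young ACI basal, day 0, against 0), 73 (luminal, against 0), 66 (basal against luminal in young ACI, against 0), 1 (luminal day 14 against day 0), 0 (adult virgin basal, against 2), 5 (NMU basal, tumor-bearing, against 1) and 7 (NMU luminal, tumor-free, against 2). In the last 2 comparisons edgeR gave 9 and 47 (1.71% and 2.07% of all genes in the same direction), DESeq2 41 and 65 (5.27% and 6.26%), a pseudocount of 10 gave 0 and 1, no filter 0 and 1, and scaling on other genes 0 and 5. In NMU luminal tumor-bearing rats edgeR gave 2 and DESeq2 61, against 0. DESeq2 also gave 9 in adult virgin basal cells, 5 for parity in luminal cells, 1 for E2 in luminal cells, 1 for day 7 in luminal cells, and 2 in young ACI CD45+ cells at day 0 and for its difference from day 14. For these DESeq2 counts the share of all genes called is not given, here or above. Whether they exceed that share cannot be told from the counts alone. With the rat as replicate block, 5 members were called in the young ACI sort, against 0, and no other paired comparison changed its call. In whole glands library size over other genes gave 50 in all cells, 4 in luminal progenitors, 27 in mature luminal, 12 in endothelial, 8 in mural, 1 in T, 12 in B and 45 in macrophage classes. Only for all cells and the macrophage class are direction and the share of all genes under this scaling given above. The other counts alone do not tell whether they exceed that share. DESeq2 gave 4 in luminal progenitors and 21 in fibroblasts, no filter 10 in fibroblasts, and 3 markers for a class 1 in luminal progenitors. Leaving out 1 rat gave 0 to 71 (NMU luminal, tumor-free), 0 to 67 (tumor-bearing), 0 to 13 (NMU basal, tumor-bearing), 1 to 9 (adult virgin basal), 0 to 18 (E2 CD45+, tumor-bearing) and 0 to 2 (young ACI CD45+). In single cells it gave 23 to 62 (ACI luminal), 26 to 62 (SD basal) and 0 to 57 (SD luminal), and in whole glands 4 to 15 (all cells), 25 to 58 (basal), 0 to 5 (luminal progenitor), 1 to 33 (mature luminal), 4 to 11 (fibroblast), 15 to 25 (endothelium), 0 to 19 (T), 2 to 17 (B), 0 to 26 (macrophages) and 13 to 24 (Schwann). The difference between day 14 and day 0 in CD45+ cells ranged from 0 to 3. The share of all genes called is given above for only some of these fits with 1 rat left out. Without it a count does not tell whether members exceed that share. Leaving the 50 most abundant other genes out of the total moved the share difference from −1.25 to −1.54 points in young ACI basal and from −1.66 to −2.21 in luminal cells, from 2.29 to 3.08 in NMU basal tumor-bearing cells and from −1.19 to −1.90 in the young ACI sort. Scaling on other genes turned RPS2 to 0.163 and RPL3 to 0.0573 in NMU luminal cells (tumor-free and tumor-bearing), RPL3 to 0.195 and 0.168 in the SD and NMU sorts, RPL4 to 0.0430 in the latter, and RPL17 to 0.190 in whole glands. Leaving out 1 rat moved RPS2 in NMU luminal cells (tumor-free) between −0.36 and 0.15, and RPL17 in whole glands between −0.29 and 0.14.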
